A study of Homo sapiens with 19 samples.

Results

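All 8 strongly metastatic sublines of MDA-MB-231, a human triple-negative breast cancer cell line, were compared with all 6 weakly metastatic sublines, 14 of the 19 lines of the series. The strong lines were 1833, 2274, 2268 and 2269 for bone and 4142, 4173, 4175 and 4180 for lung. The weak lines were 2293, 2295 and 2296 for bone and SCP21, SCP6 and SCP26 for lung. Membership came from the labels alone, and the other 5 lines, the parental line and 4 ploidy sublines, stayed out of the fit. Every line descends from 1 tumour line and was profiled once, from cultured cells harvested before confluence, on an Affymetrix array. The labels give no treatment other than selective drugs in the medium where a line needed them, and which lines these were is not given in the sources used here. RNA came from bulk cultures, so fewer cells expressing a gene and less RNA per cell cannot be told apart. Lines 1833 and 4175 are the original sublines after short culture, and the SCP lines are known as progenies of single cells. All weak lung lines and no strong lung line bear the SCP name, so in lung strength and this derivation cannot be told apart. The line titled 2296 is called 2297 in another label. The lines are separate sublines and not repeat cultures of 1 line, so a p-value measures the spread between lines.

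The question was which transcripts differ between strong and weak lines whatever the organ. A difference below is strong minus weak on the scale log2(signal + 16), taken within bone lines and within lung lines and then averaged with equal weight. A gene was called when limma's moderated test, over 9547 genes with Benjamini-Hochberg adjustment, gave an adjusted p under 0.05. Values for single lines are log2 levels in the order of the lines given above. A transcript under its own array's 40th percentile of signal was treated as dim. Where a group was dim on every array, the fitted log2 difference rests on values with no measured level, and only the lower bound against that percentile is a size.

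Metastasis needs cells that leave a tumour, survive in the blood and grow in another tissue. Secreted factors and proteases are known to remodel bone or lung for the incoming cells. Tumour cells also carry signals read by immune cells, among them antigen-presenting MHC molecules, complement proteins and the cytokines driven by the NF-kB transcription factors.

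The arrays were alike in quality between strong and weak lines on most measures. Median signals before scaling lay between 121.8 and 161.6, and the spike-in controls differed by 0.063 log2 (exact permutation within organs, two-sided p = 0.57). On the lung arrays these controls lay at 9.94 to 10.72, below the 11.11 to 11.38 of the bone arrays. The ratio of 3 prime to 5 prime ACTB probe sets was 0.16 log2 lower in strong lines (exact permutation p = 0.0416, or 0.333 after adjustment over the 8 quality values). Array SCP6 stood apart, with a mean correlation of 0.914 with its own group against at least 0.928 for every other array of the comparison. SCP21 and SCP26 correlated with the strong lung arrays at 0.927 and 0.924, nearly as well as with their own group. Of the 6 genes listed as low in MDA-MB-231, CDH1 and PGR were dim on all 14 arrays and FOXA1 on 11, whereas ESR1 was above the 40th percentile on 13 and ERBB2 and GATA3 on all 14. Of the 6 genes listed as high, 5 were tested, and these, CD44, AXL, EGFR, CAV1 and MSN, were above it on all 14. VIM was listed but not tested.

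In the average of both organs 846 of 9547 genes were called (8.86%), 384 higher in strong lines (4.02%) and 462 lower (4.84%). Of the 846 genes, 730 had the same sign in both organs (86.3%, against 46.9% of all genes tested), a share that the averaging itself raises. Within bone lines 628 genes were higher (6.58%) and 438 lower (4.59%), and within lung lines 314 were higher (3.29%) and 517 lower (5.42%). Only 76 genes were called in the same direction in each organ by itself, 25 higher and 51 lower. By contrast 131 genes were called in opposite directions, and the difference between the organs was itself called for 1102 genes (11.5%). Across all genes the bone and lung differences had a Pearson correlation of -0.058, over genes that share arrays and are not independent. Without line 2293 the count of shared calls was 498, without 2295 it was 551, and without both original sublines it was 415.

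**Figure D1:**
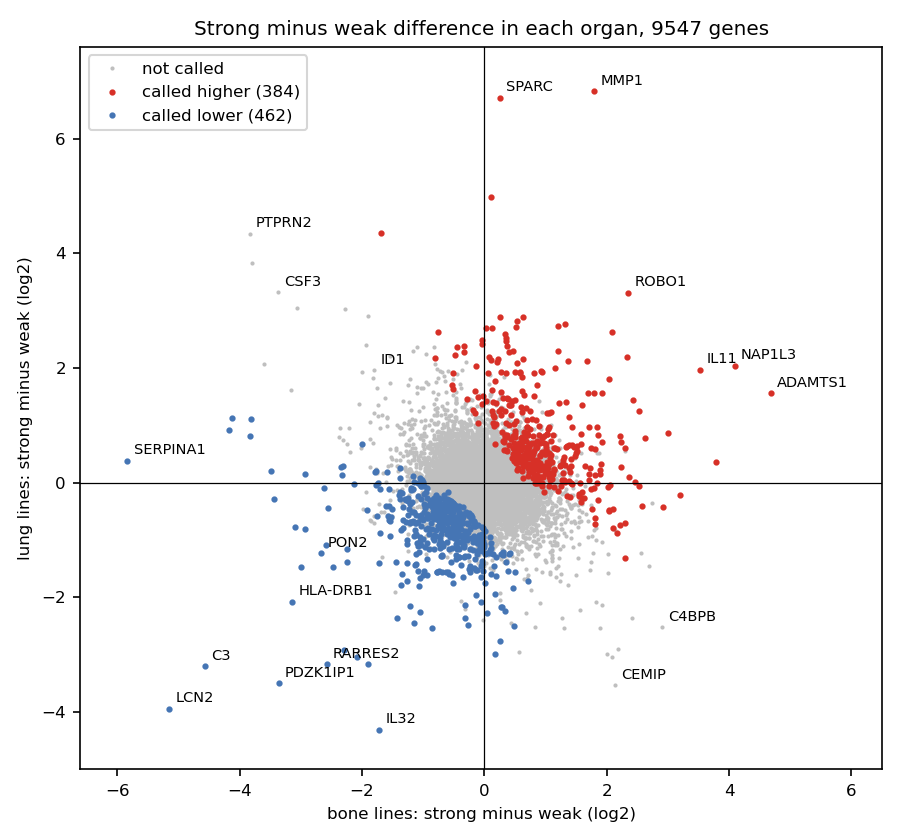
Strong minus weak difference (log2) of each of 9547 genes in bone lines (horizontal axis) and in lung lines (vertical axis), with the 384 genes called higher in red and the 462 called lower in blue. LCN2, C3 and PDZK1IP1 lie far out in the lower left, where both organs fell, whereas SPARC and SERPINA1 lie along an axis, where 1 organ carries the average.

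Among genes that rose in both organs, ROBO1, a receptor for the Slit guidance proteins (chromosome 3, 78597239 to 79767998), came first by the smaller of its fitted differences. Its levels were 8.81, 9.16, 9.40 and 8.25 in strong bone lines and 5.07, 7.0 and 7.59 in weak bone lines. In lung they were 7.27, 7.52, 7.89 and 7.55 in strong lines and 4.13, 4.12 and 4.48 in weak lines, all 3 dim. Strong lines lay above weak lines in both organs without overlap, as 107 genes did (1.12%). By comparison, 377 genes did not overlap in either organ but differed in opposite directions. The fitted average difference of ROBO1 was 2.83 ± 0.32 (SE, adjusted p = 0.00021). Its lung part rests on the dim weak lung lines, where only a rise of at least 2.04-fold is a size. ROBO1 is also on the list of lung metastasis genes, yet its bone difference of 2.35 was called too.

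RGCC, a regulator of the cell cycle, and AGR2, a disulfide isomerase of the endoplasmic reticulum, rose by 2.26 ± 0.33 and 2.36 ± 0.35 (adjusted p = 0.0011 and 0.0012). AGR2 levels were 10.53, 10.96, 10.14 and 10.42 in strong bone lines and 7.69, 8.75 and 8.84 in weak ones. In lung AGR2 lay at 7.07, 8.42, 5.71 and 7.69 in strong lines and at 4.91, 4.21 and 4.65 in weak ones, so the groups did not overlap in either organ but the strong lung lines were uneven. SLCO1B3, an organic anion transporter, rose by 1.74 ± 0.22 and CHRDL1, a secreted BMP antagonist, by 1.74 ± 0.26 (adjusted p = 0.00052 and 0.0012). NAP1L3, ZNF804A and TENM3, a teneurin of cell-cell adhesion, were called higher (adjusted p = 0.00082, 0.0012 and 0.002) but were dim in all 6 weak lines. NAP1L3 was at least 5.74-fold higher in bone and 2.30-fold in lung, ZNF804A at least 2.39-fold and 1.57-fold, and TENM3 at least 2.04-fold and 2.12-fold. These bounds are for group means and not for each line. For NAP1L3 the lung groups overlapped, with strong line 4142 at 6.21 and weak line SCP21 at 6.55. In lung the weak lines were dim for RGCC, AGR2, CHRDL1 and TMEM156 too, with bounds of at least 1.91-fold, 1.51-fold, 1.62-fold and 1.29-fold. For TMEM156 only 2 of the 4 strong lung lines were above the 40th percentile. MED18, a subunit of the Mediator complex, rose by 1.63 ± 0.34 and TMEM156 by 1.47 ± 0.19. APBB1IP, an adaptor that links Rap1 to integrins, rose by 1.68 ± 0.39, with an adjusted p of 0.018 that became 0.051 without line 2293.

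The bone metastasis genes are known from earlier work on related MDA-MB-231 sublines, so their direction in these bone lines is not independent evidence. All 8 members tested were called higher on average, against 4.02% of all genes. Their median difference was 2.0 against -0.000014 over all genes. Within lung lines by themselves 3 of the 8 were called higher, against 3.29% of all genes, with a median of 1.15. CCN2 (connective tissue growth factor), ADAMTS1 (a secreted metalloprotease) and MMP1 (interstitial collagenase) were those 3. FST, CXCR4 and SRGN were called in bone but not in lung. FGF5, the smallest at 0.74, lost its call in 10 of 29 alternatives.

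CCN2 had the steadiest rise of these. Its levels were 12.46, 12.65, 12.97 and 12.31 in strong bone lines against 9.88, 10.36 and 10.25 in weak ones. The strong lung lines lay at 11.99, 11.99, 11.98 and 11.70 and the weak ones at 10.78, 10.78 and 9.88. The average difference was 1.94 ± 0.17 (adjusted p = 2.4e-05), and its difference between organs was not called (adjusted p = 0.071). IL11, a cytokine that promotes osteoclast formation, stood at 11.05, 11.59, 11.37 and 10.25 in strong bone lines against 6.89, 7.38 and 8.34 in weak ones. In lung IL11 was 10.61, 7.69, 8.42 and 8.66 in strong lines and 7.77, 7.11 and 5.74 in weak ones, where line 4173 lay below SCP21. The average was 2.75 ± 0.44 (adjusted p = 0.002), with a lung difference of 1.97 that did not pass (adjusted p = 0.068).

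MMP1 and ADAMTS1 were higher in both organs but unequally. MMP1 was 12.51, 13.19, 11.51 and 12.41 in strong bone lines, 9.66, 10.25 and 11.91 in weak bone lines, 12.06, 10.96, 11.32 and 12.32 in strong lung lines and 4.23, 4.44 and 5.85 in weak lung lines. All strong lines thus reached a similar level, whereas the weak bone lines were high and the weak lung lines dim. Bone and lung lines were in separately divided sets of arrays, so for levels across organs the organ and the set cannot be told apart. The lung signal was at least 38.3-fold higher in strong lines, and the bone difference of 1.80 did not pass (adjusted p = 0.051). ADAMTS1, dim in all 6 weak lines, was called in both organs, at least 15-fold higher in bone and at least 1.04-fold in lung. Only 2 of the 4 strong lung lines were above the 40th percentile for ADAMTS1, so its lung bound includes dim strong lines. The fitted organ difference was called for MMP1 (-5.03, adjusted p = 0.0012) and for ADAMTS1 (3.12, adjusted p = 0.0031), each against dim groups.

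The lung metastasis genes, likewise known from related sublines, behaved differently. Of 19 tested, 8 were called higher on average (42.1%, against 4.02% of all genes) and 1, CXCL1, lower. In lung lines 15 were higher, against 3.29% of all genes. In bone lines only 1, ROBO1, was higher, near the share of all genes (6.58%), and 5 were lower, against 4.59% of all genes. SPARC, a matrix glycoprotein, showed this most plainly. It was 11.69, 11.56, 11.92 and 11.47 in strong lung lines and dim in the other 10 lines of the comparison, at least 38.1-fold lower in weak lung lines. Its called average therefore came from lung alone, as did that of IL13RA2, which was dim in the same 10 lines and at least 17.2-fold higher in strong lung lines. ID1, an inhibitor of differentiation factors on this list, averaged 0.08 because it was 1.80 lower in strong bone lines and 1.96 higher in strong lung lines. LAPTM5, a lysosomal membrane protein usually of leukocytes, moved the same way as ID1, by -1.55 and 2.20.

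**Figure D2:**
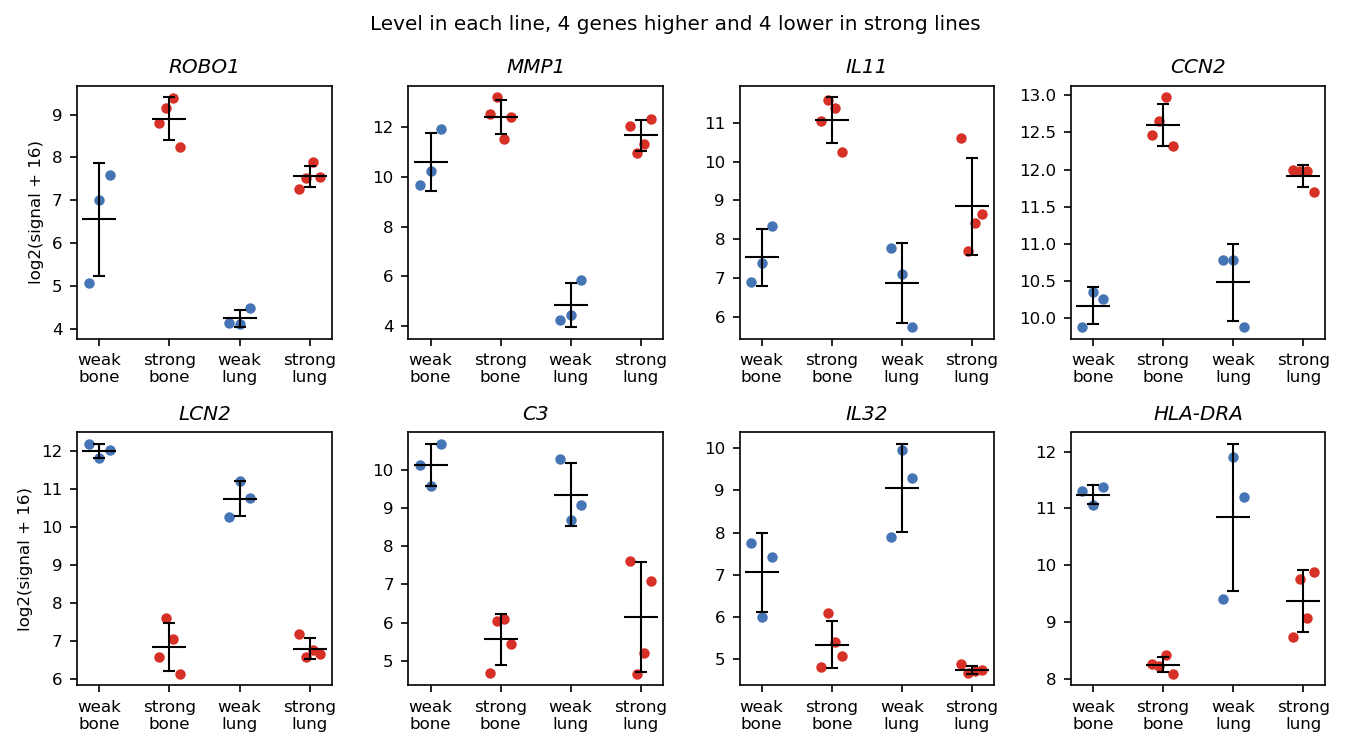
Log2 level of 4 genes higher and 4 genes lower in strong lines, 1 point per line (blue weak, red strong) with the group mean and SD as bars. ROBO1, CCN2, LCN2 and C3 separate strong from weak lines in both organs, whereas IL11 and HLA-DRA overlap in lung and MMP1 and IL32 in bone.

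Several of the transcripts that fell furthest in both organs act in immune defence. LCN2 (lipocalin 2, an iron-scavenging antimicrobial protein, chromosome 9, 128149453 to 128153453) had the largest fall of the named genes. Its levels were 6.56, 7.61, 7.06 and 6.14 in strong bone lines against 12.16, 11.80 and 12.01 in weak ones. In lung they were 7.18, 6.57, 6.77 and 6.66 against 10.25, 11.20 and 10.77. The groups did not overlap in either organ, as for 193 genes lower in both (2.02%). The average difference was -4.55 ± 0.22 (adjusted p = 7.8e-08), with -5.15 in bone and -3.94 in lung, and the parental line stood between them at 9.39.

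C3, the central complement protein, was 4.67, 6.04, 6.10 and 5.44 in strong bone lines and 10.13, 9.57 and 10.68 in weak ones. In lung it was 7.61, 4.66, 5.21 and 7.10 against 10.28, 8.70 and 9.08, which leaves a wide spread among strong lung lines. Its difference was -3.89 ± 0.45 (adjusted p = 0.00029), at least 13.1-fold in bone. PDZK1IP1, a small membrane protein, fell by 3.43 ± 0.27 and by nearly the same amount in each organ. RARRES2, the chemokine-like protein chemerin, was called lower (adjusted p = 0.001) and was dim in all 8 strong lines, at least 2.84-fold lower in bone and 3.34-fold in lung. It was also dim in SCP21, at 6.18 against 9.61 and 9.35 in the other weak lung lines. ABCC3, a drug and bile salt exporter, and IL32, a cytokine induced by TNF, were dim in every strong line as well. ABCC3 was at least 1.95-fold lower in bone and 4.23-fold in lung (adjusted p = 0.00091), and IL32 at least 1.36-fold and 5.68-fold (adjusted p = 0.00019). VNN1, a pantetheinase, and EBI3, a subunit of IL-27 and IL-35, were dim in all strong lines too and were called lower (adjusted p = 0.0015 and 0.002). The bounds for VNN1 were 2.46-fold in bone and 1.13-fold in lung, and for EBI3 1.07-fold in lung, with none above 1 in bone. CPD, a carboxypeptidase measured in every line, fell by 1.42 ± 0.18.

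MHC class II molecules display peptides to helper T cells. Of 11 genes of this pathway tested, 8 were called lower (72.7%, against 4.84% of all genes) and none higher. The median difference was -1.34 (-1.27 in bone and -1.48 in lung). In each organ by itself 7 were called lower, against 4.59% of all genes in bone and 5.42% in lung. Of these, 6 were called in both organs. Strong lines lay below weak lines without overlap in both organs for 6 genes, against 2.02% of all genes. The 8 were the chains HLA-DRA, HLA-DRB1, HLA-DPA1 and HLA-DPB1, the chaperone CD74, the peptide loaders HLA-DMA and HLA-DMB, and the protease CTSS. This count stayed between 7 and 9 under the alternatives run and at 8 with any 1 line left out.

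HLA-DRA, the invariant alpha chain of HLA-DR, was 8.25, 8.22, 8.42 and 8.09 in strong bone lines against 11.31, 11.06 and 11.37 in weak ones. In lung it was 8.73, 9.76, 9.08 and 9.88 against 9.40, 11.91 and 11.21, where SCP21 lay within the range of the strong lines. The average fell by 2.24 ± 0.32 (adjusted p = 0.00095), and the lung difference of -1.48 did not pass by itself (adjusted p = 0.056). HLA-DRB1 was 8.68, 8.27, 9.18 and 8.39 in strong bone lines, 11.70, 11.69 and 11.92 in weak bone lines, 9.70, 9.72, 9.71 and 10.08 in strong lung lines and 10.62, 12.91 and 12.11 in weak lung lines. Strong lines lay below weak ones in both organs, and the average difference was -2.61 ± 0.28 (adjusted p = 0.00018). CD74, the invariant chain, fell by 1.82 ± 0.19 (adjusted p = 0.00018) and HLA-DPA1 had a difference of -2.61 ± 0.32 (adjusted p = 0.00041).

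CIITA, the coactivator known to switch this pathway on, did not follow. Its difference was 0.02 ± 0.21 (adjusted p = 0.98), with levels of 6.04 to 7.92 across the 14 lines, near the dim range, and its other probe set had the opposite sign. HLA-DQB1 (-0.27 ± 0.14) and HLA-DOA (-0.21 ± 0.19) did not pass either. In the 20 Mb stretch of chromosome 6 from 20 Mb, which holds the HLA genes, 20 of 205 genes were called lower (9.76%, against 4.84% of all genes). In the same stretch 14 were called higher (6.83%, against 4.02%). Of the 205 genes, 12 did not overlap and were lower in both organs, against 2.02% of all genes. The median difference there was 0.03. Leukocytes also carry these molecules. Of the 13 leukocyte markers tested none was called on average, but LAPTM5 and HCLS1 were called lower in strong bone lines (-1.55 and -1.38) and LAPTM5 higher in strong lung lines (2.20). Of 16 markers with a signal, PTPRC, TYROBP, LCP2 and CORO1A were dim on all 14 arrays, LAPTM5 and CD53 were above the 40th percentile on all 14, and the others were above it on 2 to 12. The summed signal of these markers was 2910 to 4504 in strong and 8502 to 8643 in weak bone lines, but 6830 to 7536 in strong and 2334 to 3114 in weak lung lines. Most of these differences came from LAPTM5 alone. Its mean signal was 2433 in strong and 7019 in weak bone lines, and 5806 in strong and 1270 in weak lung lines. The sums therefore cannot tell whether the other markers moved with LAPTM5. The part of leukocyte markers in the MHC class II result was not tested.

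**Figure D3:**
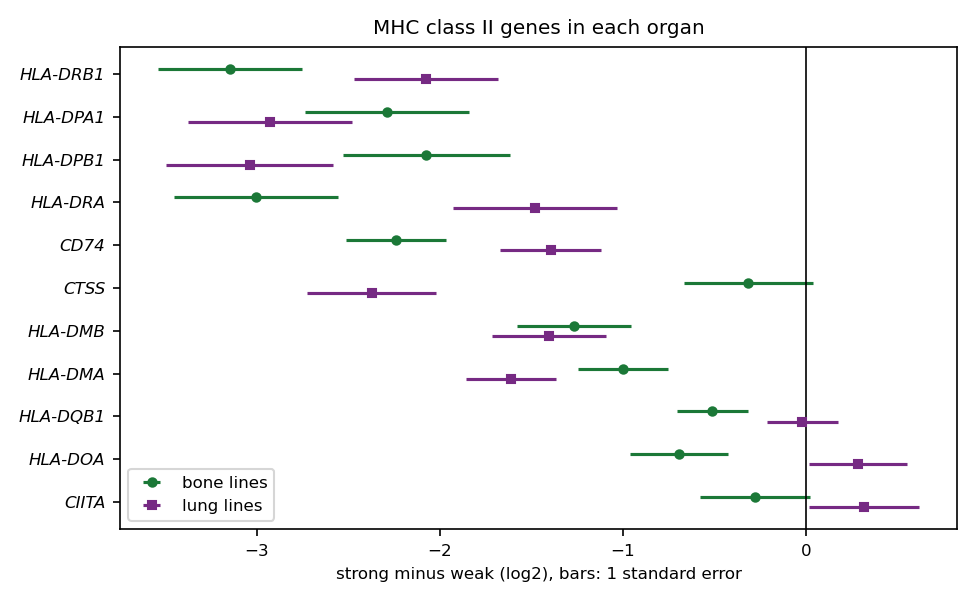
Strong minus weak difference (log2) with 1 standard error for the 11 MHC class II pathway genes, bone lines as green circles and lung lines as purple squares. The DR and DP chains, CD74, HLA-DMA and HLA-DMB lie below 0 in both organs, CTSS mainly in lung, and CIITA, HLA-DOA and HLA-DQB1 lie between -0.70 and 0.32.

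Promoters of this pathway are known to share a Y box, the inverted CCAAT letters ATTGG bound by the factor NF-Y. RefSeq promoters (GRCh38.p14, 250 bases before to 50 after the start) were on hand for 7808 of the 9547 genes. The 5 stretches below belong to members that fell and show where those letters sit in front of the start, with ATTGG or its reverse complement in capitals.
HLA-DRB1: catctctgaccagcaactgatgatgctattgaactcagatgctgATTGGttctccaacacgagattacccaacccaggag
HLA-DPB1: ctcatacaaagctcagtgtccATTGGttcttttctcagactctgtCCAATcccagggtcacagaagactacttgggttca
HLA-DMA: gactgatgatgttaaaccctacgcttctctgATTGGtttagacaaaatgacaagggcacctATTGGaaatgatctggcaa
HLA-DMB: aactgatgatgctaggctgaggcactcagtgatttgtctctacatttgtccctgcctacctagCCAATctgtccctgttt
CD74: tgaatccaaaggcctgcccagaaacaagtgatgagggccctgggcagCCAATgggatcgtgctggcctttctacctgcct

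They lie at chr6:32589859-32589938 (minus strand), chr6:33075870-33075949 (plus), chr6:32953128-32953207 (minus), chr6:32941034-32941113 (minus) and chr5:150412931-150413010 (minus). Of the 8 pathway promoters on hand, 7 held ATTGG on either strand, the exception being that of HLA-DPA1. Their mean GC content was 50.5%, against 63.8% for all promoters, and its part in this share was not tested. The letters are common, being found in 37.2% of all 7808 promoters, 33.2% of those of genes called lower and 44.5% of those of genes called higher. They were also in the promoters of HLA-DQB1 and HLA-DOA, whose transcripts did not pass the test. This motif was chosen after the values were seen.

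Targets of NF-kB fell in part. Of 17 NF-kB cytokines and chemokines tested 7 were called lower (41.2%, against 4.84% of all genes) and none higher. The median was -1.17 on average, -1.70 in bone, where 8 were called lower, and -0.34 in lung, where 3 were called lower and 1 higher. Only IL32 was called lower in both organs by itself. TNFSF10, the death ligand TRAIL, fell by 1.69 ± 0.42, CSF1, the macrophage growth factor, by 1.17 ± 0.21. CX3CL1, a membrane chemokine, was dim in all strong lines and at least 2.40-fold lower in bone and 1.68-fold in lung (adjusted p = 0.011). CXCL1, CCL20 and IL1A were lower in bone lines only by their own tests, with lung differences of 0.20, 0.92 and -0.47, and IL1A lost its call in 22 of 29 alternatives and CXCL1 in 15 of 30. The other probe set of IL1A had the opposite sign. CSF3, the granulocyte growth factor, went opposite ways. It gave -3.37 in bone and was at least 4.45-fold higher in strong lung lines, against weak lung lines that were all dim. Leaving out line 2293 reduced this list's count to 4, and leaving out both original sublines reduced it to 3.

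Of 22 NF-kB receptors, regulators and targets 9 were called lower (40.9%) and 1 higher. TNFAIP2, a TNF-induced gene, was 9.36, 9.23, 9.12 and 9.15 in strong bone lines against 10.61, 10.71 and 10.40 in weak ones, and 9.30, 9.99, 9.78 and 9.81 in strong lung lines against 10.97, 12.10 and 11.43. No strong line reached a weak line of its organ, and the difference was -1.57 ± 0.17 (adjusted p = 0.00018). RELB, an NF-kB subunit, was 7.99, 8.08, 7.28 and 7.57 against 8.67, 9.06 and 8.70 in bone and 7.16, 7.76, 7.84 and 7.61 against 8.27, 9.03 and 8.82 in lung. It fell by 1.10 ± 0.18 (adjusted p = 0.002) and by like amounts in each organ. The subunits NFKB2 (-0.73 ± 0.19) and RELA (-0.55 ± 0.12), the adhesion molecule ICAM1 (-1.27 ± 0.29) and the TNF receptor TNFRSF1B (-1.13 ± 0.18) were also lower, though RELA's other probe set had the opposite sign. The receptor TLR2 was lower by 0.95 ± 0.21, whereas TLR4 was the 1 member that rose (0.94 ± 0.15).

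The kB site bound by NF-kB is searched here as GGG and CC with any 5 bases between them, on both strands. LCN2 is shown because it fell furthest and holds a match on each strand at overlapping positions. IL32 and EBI3 were picked by hand from the genes dim in every strong line, and the others are not shown. Each stretch was picked to hold a match, in capitals.
LCN2: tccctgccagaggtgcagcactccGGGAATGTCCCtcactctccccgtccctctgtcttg
IL32: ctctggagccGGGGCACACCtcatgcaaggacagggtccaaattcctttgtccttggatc
EBI3: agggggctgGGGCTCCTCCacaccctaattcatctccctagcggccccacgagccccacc

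These lie at chr9:128149253-128149312, chr16:3065213-3065272 and chr19:4229343-4229402, all on the plus strand. The motif was in 78.0% of 386 promoters of genes called lower, in 66.5% of 310 promoters of genes called higher and in 72.2% of all promoters. Mean GC content ran in the same order, 65.2%, 62.4% and 63.8%, and its part in these shares was not tested.

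Other defence genes fell in smaller numbers. Of 15 complement components and regulators 5 were called lower (33.3%, against 4.84% of all genes) and none higher: C3, CFB (-1.69 ± 0.26), C2 (-0.97 ± 0.13), C1S and C5. C1S and C5 were dim in all strong lines, at least 1.24-fold and 1.22-fold lower in bone, and C1S lost its call in 11 of 29 alternatives. Of 8 acute phase and antimicrobial genes 4 were called lower, and of those LCN2 and RARRES2 fell in both organs. The protease inhibitors SERPINA1 and SERPINA3 fell only in bone lines, by 5.83 and 4.13, with lung differences of 0.38 and 1.12 that did not pass. Of 16 genes for MHC class I and the immunoproteasome 6 were called lower, led by PSMB9 (-1.07 ± 0.16), an inducible proteasome subunit that fell in both organs, and HLA-F (-0.89 ± 0.18). HLA-B, already near the top of the range at 12.23 to 14.22, fell in lung lines (-1.25) and not in bone lines (-0.12). This count was 2 without line 2293. Of 32 interferon-stimulated genes only IFI27 (-1.65 ± 0.27) and GBP2 (-1.04 ± 0.24) were called, near the share of all genes.

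**Figure D4:**
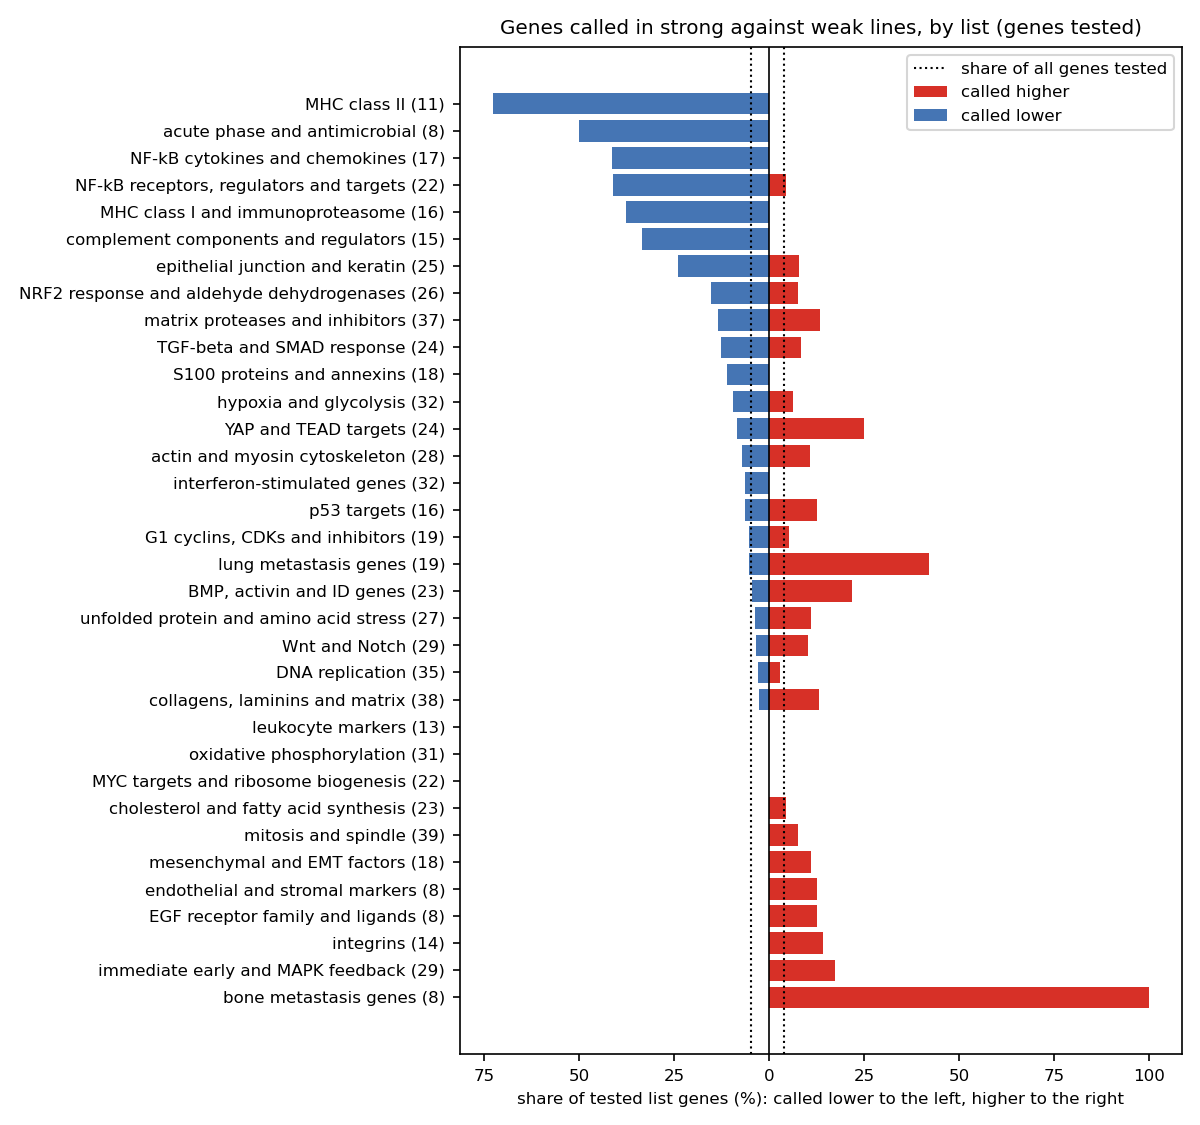
Share (%) of the tested genes of each list called higher (red, to the right) or lower (blue, to the left) in strong lines, with the number tested in parentheses and dotted lines at the shares of all genes, 4.02% and 4.84%. MHC class II, acute phase, NF-kB and complement genes extend to the left and the metastasis lists to the right.

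Shares of the next lists are to be read against 4.02% higher and 4.84% lower over all genes. Of 23 BMP, activin and ID genes 5 were called higher (21.7%) and 1 lower (4.35%). INHBB, an activin and inhibin subunit, was 8.15, 7.89, 7.87 and 7.59 in strong bone lines and 7.09, 7.56, 7.78 and 6.90 in strong lung lines, and dim in all 6 weak lines. It was called higher on average (adjusted p = 0.00044) and in both organs, at least 2.55-fold in bone and 1.71-fold in lung. GDF15 and FST rose in bone only, by 3.20 and 3.78, ID4 averaged 0.95 ± 0.20, and SMAD6 (1.19 ± 0.34) lost its call in 20 of 29 alternatives. Of 29 immediate early and MAPK feedback genes 5 were higher (17.2%) and none lower, among them the phosphatases DUSP1 (1.45 ± 0.19) and DUSP6 (1.0 ± 0.19), which damp MAP kinases. EGR1, at 1.16 ± 0.28, had another probe set of opposite sign. Of 24 YAP and TEAD targets 6 were higher (25%) and 2 lower (8.33%), but 9 were higher in bone and 2 in lung, and only CCN2 rose in both. PHGDH, which commits glucose carbon to serine, rose by 1.58 ± 0.19 (adjusted p = 0.00031), with strong lines above weak ones in both organs.

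Cell adhesion genes were mixed. Of 25 epithelial junction and keratin genes 6 were lower (24.0%) and 2 higher (8.0%). CLDN4, a tight junction claudin, was 8.34, 8.50, 8.20 and 7.93 against 9.15, 9.56 and 9.79 in bone and 7.43, 7.17, 7.36 and 7.29 against 8.45, 9.43 and 9.20 in lung. It fell in both organs, by 1.49 ± 0.17 (adjusted p = 0.0002). The desmosomal proteins PPL and JUP fell in bone lines, PPL by at least 4.68-fold to a dim level and JUP with a difference of -2.93. They gave 0.81 and -0.81 in lung, neither of which passed. Of 18 mesenchymal and EMT factors 2 were called higher (11.1%) and none lower, SPARC and FBN1 (0.80 ± 0.17), and the median was 0.18. KHDRBS3, an RNA-binding protein, and NR2F1, an orphan nuclear receptor, rose in both organs by 2.05 ± 0.21 and 1.97 ± 0.15, both more in lung than in bone, though NR2F1 was dim in the weak lung lines (at least 2.96-fold).

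Of 39 mitosis and spindle genes 3 were called higher (7.69%, against 4.02% of all genes) and none lower, CDC20 (0.99 ± 0.20), KIF2C (0.65 ± 0.16) and BUB3 (0.51 ± 0.14). BUB3 lost its call in 12 of 30 alternatives. Of 35 DNA replication genes 1 was called in each direction. None of 31 oxidative phosphorylation genes and none of 22 MYC targets was called, and their medians were -0.087 and 0.17. Of 32 hypoxia and glycolysis genes 2 were higher and 3 lower (15.6% called, against 8.86% of all genes), among them ADM, a vasodilator peptide (1.16 ± 0.25), and EGLN3, an oxygen-sensing prolyl hydroxylase (-0.81 ± 0.15). Of 26 NRF2 response and aldehyde dehydrogenase genes 2 were higher and 4 lower (23.1% called), among them SLC7A11, the cystine transporter (1.40 ± 0.27), and ALDH2, a mitochondrial aldehyde dehydrogenase (-0.80 ± 0.12).

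The position of the called genes was uneven. On chromosome 7, 88 of 426 genes were called lower (20.7%) and 8 higher. They lay mostly from 60 Mb on, which is the long arm, where 79 of 298 genes were called lower (26.5%) and 4 higher, against 9 of 128 lower before 60 Mb. The boundary was set after the values were seen. From 60 Mb on, the median difference was -0.35 in bone and -0.32 in lung, and 76.5% of the genes had a negative average. Outside this stretch 383 of 9245 genes were called lower (4.14%). Of 145 windows of 20 Mb with at least 20 genes, only 3 had medians below -0.2 in both organs, all of them on chromosome 7. The chromosome 7 windows from 80 Mb and from 140 Mb missed this limit in lung, at -0.19 and -0.11.

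Every strong line shared this shift. Relative to the mean of the weak lines of its organ, the median of the stretch was -0.34, -0.30, -0.33 and -0.55 in strong bone lines and -0.30, -0.35, -0.31 and -0.31 in strong lung lines. The weak lines lay at 0.01, 0.02 and -0.05 for bone and at -0.02, 0.16 and -0.07 for lung. The parental line lay at -0.01 against the weak bone lines. Strong and weak lines thus did not overlap in either organ. The count of genes lower was 49 without both original sublines and 52 without line 2293, and the median stayed between -0.47 and -0.29 under the alternatives run.

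Several of the genes described here lie there. CLDN4 starts at 73830996, PON2, a paraoxonase that fell by 1.95 ± 0.27, at 95404862, CALD1, the actin-binding caldesmon, at 134711499, and RARRES2 at 150338329. CALD1 was 8.89, 9.01, 9.06 and 9.04 against 10.28, 10.32 and 10.19 in bone and 10.64, 9.83, 9.79 and 10.28 against 10.88, 11.38 and 11.18 in lung. Strong lines were lower in both, by 1.14 ± 0.15 on average (adjusted p = 0.00057), and its 5 other probe sets had the same sign. CAV1, the coat protein of caveolae, fell by 0.55 ± 0.12. TRRAP, a scaffold of histone acetyltransferase complexes, and TFPI2, a serine protease inhibitor, were picked after their values were seen. They fell by 1.07 ± 0.15 and 1.31 ± 0.23, in both organs. AGR2, on the short arm, rose.

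Chromosome 1 showed the converse over its first 60 Mb, where 46 of 362 genes were called higher (12.7%, against 4.02% of all genes) and 5 lower. The medians were 0.25 in bone and 0.23 in lung, and all 8 strong lines were above 0, from 0.01 in line 4180 to 0.42 in line 2268. The weak line SCP6 lay at 0.15, so the lung groups overlapped, and the parental line lay at 0.27 against the weak bone lines. MED18, CDC20, EPHA2 (0.84 ± 0.16) and KLHL21 (0.97 ± 0.19) belong to this stretch. Elsewhere whole stretches differed between the organs. Chromosome 18 had a median of 0.55 in bone and -0.35 in lung, and the first 80 Mb of chromosome 12 had -0.30 and 0.33. The first 40 Mb of the X chromosome was lower in lung only, at -0.67 against 0.05. Even so, 23 of its 79 genes were called lower on average (29.1%), so such a share can come from 1 organ. These stretches were picked after the values were seen.

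**Figure D5:**
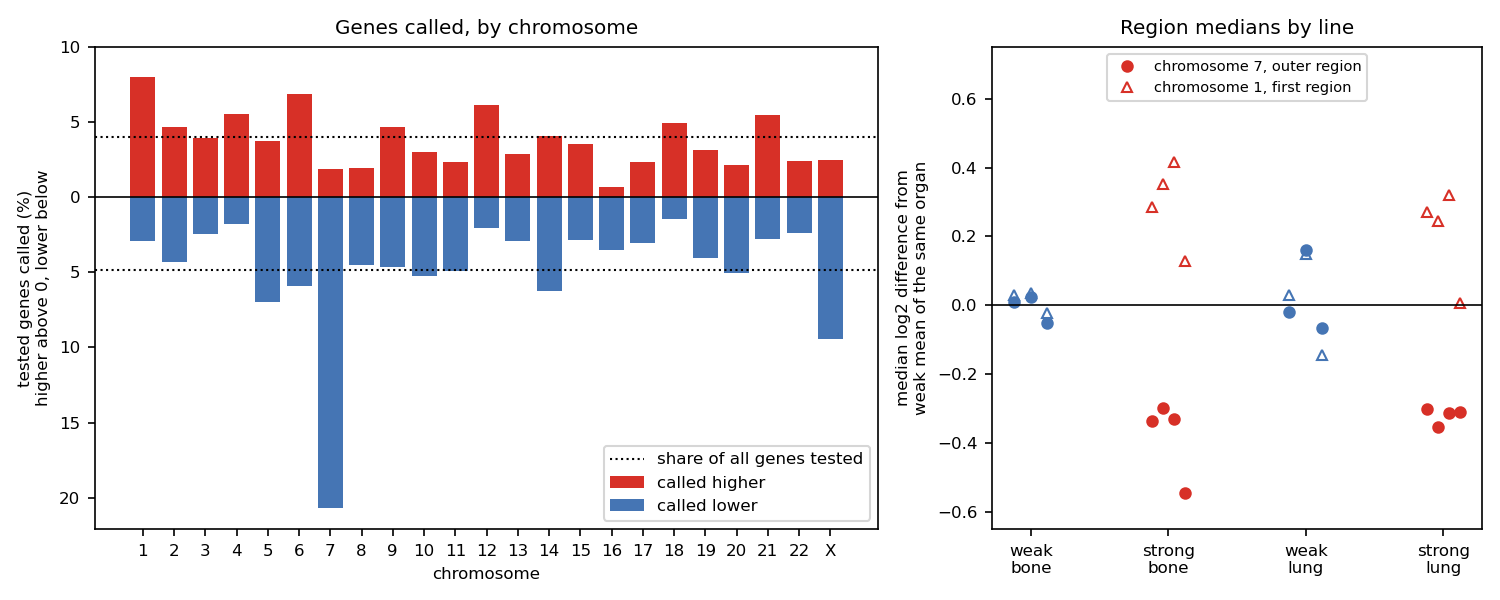
Left, share (%) of tested genes called higher (red) or lower (blue) on each chromosome, with dotted lines at the shares of all genes. Right, median log2 difference of each line from the mean weak level of its organ for chromosome 7 from 60 Mb (filled circles) and chromosome 1 before 60 Mb (open triangles), where all strong lines lie at or below -0.30 on chromosome 7.

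Some genes separated strong from weak lines in each organ but in opposite directions, so the average hid them. C4BPB, a subunit of a complement inhibitor, was 9.44, 9.90, 8.66 and 9.34 against 6.30, 6.79 and 6.20 in bone and 7.90, 5.99, 6.82 and 6.92 against 9.05, 9.32 and 9.92 in lung. It was 2.91 higher in strong bone lines and 2.52 lower in strong lung lines, with an average of 0.19 (adjusted p = 0.75). WT1, a zinc-finger transcription factor, CEMIP, a hyaluronan-degrading protein, and MATN2, a matrix protein, had the same pattern, WT1 and MATN2 being dim in the lower group of each organ, with fitted bone differences of 2.18, 2.14 and 2.09 and lung differences of -2.90, -3.54 and -3.04. In the other direction, SPANXB1, a testis antigen, gave -3.79 in bone and 3.84 in lung. LINC01711, a non-coding RNA, gave -3.06 in bone, and CSF3 gave -3.37. Both were dim in all weak lung lines, and were at least 4.05-fold and 4.45-fold higher in strong lung lines. EFEMP1, KYNU and PTPRN2 also met the rule, but each had all its other probe sets against it in the sign of the average, which for these genes was within 0.37 of 0.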

How the data were processed

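The authors deposited linear ratios, 1 per probe set and line, in 2 separately divided sets. All bone lines of the comparison were in 1 set and all its lung lines in the other. How the software, background correction and normalisation were set is not given in the sources used here. Within an array the ratios were whole multiples of 0.1 signal units once a divisor per probe set was taken out (tolerance 0.01 steps), which recovered signals for 22186 of 22283 probe sets (99.6%). The 97 others are not reported. Recovered signals, and not the ratios that the comparison was planned for, were brought to the same median on every array and analysed as log2(signal + 16). A probe set was kept if above its array's 40th percentile on 2 of 19 arrays (16276 kept). The brightest kept probe set with 1 symbol stood for a gene (19071 had 1 symbol, 1043 several, 2169 none listed), from GEO's platform annotation. Positions, symbols and promoters are from RefSeq (GRCh38.p14).

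The fit was limma 3.58.1 in R 4.3.3 with 1 mean for each of the 4 groups (10 residual degrees of freedom), a moderated test for each contrast and Benjamini-Hochberg adjustment. It was tested on simulated data. The number of arrays limits the precision, and no depth applies. No replicate numbers pair the lines. Named genes were the 15 higher and 15 lower with the largest smaller-of-both-organs difference, the next 6 of each direction by average, 5 of each opposite direction, up to 4 called members of each of 37 lists, and 8 known metastasis genes. Other names were added after their values were seen. The comparison, members and lists were chosen with earlier results of these data known.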

Additional observations from a re-analysis of the deposited data

Results flagged for a closer look

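In 13 of 212 groups of 4 strong lines examined over the 106 named genes, 1 line lay far from the other 3 by Dixon's test, a number to be read against the 1 in 20 groups that chance gives. In the strong bone lines these were 1833 for APBB1IP (6.49), 2269 for RARRES2 (5.69) and SPARC (6.24), 2274 for PTPRN2 (7.73) and 2268 for SMAD6 (8.28). In the strong lung lines they were 4180 for CCN2 (11.7), HLA-DRB1 (10.1) and GDF15 (8.03), 4142 for SERPINA1 (7.63), PTPRN2 (4.94), PPL (7.65) and DUSP1 (10.6), and 4175 for TNFRSF1B (5.97). All are log2 levels.

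For 36 of the 106 named genes the strong-minus-weak difference was itself different between the organs by limma's interaction test. The bone difference exceeded the lung difference for ADAMTS1 (3.12), FST (3.42), GDF15 (3.42), CXCR4 (2.27), SRGN (2.15), DUSP1 (1.71), IL32 (2.59), CTSS (2.06), TNFRSF1B (1.25), HLA-B (1.13) and ALDH2 (0.97). For the last 5 of these the positive value stands for a smaller fall in bone. In this and the next paragraph a value is not a measured size where a group was dim on every array. This held for IL32, ADAMTS1, WT1 and MATN2 here, and below for SPARC, IL13RA2, MMP1, NR2F1, PPL, PTPRN2, CSF3 and LINC01711, among others. The bone difference was also the greater for C4BPB (5.43), EFEMP1 (4.78), WT1 (5.08), CEMIP (5.68) and MATN2 (5.13).

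The lung difference exceeded the bone difference for MMP1 (-5.03), SPARC (-6.46), IL13RA2 (-4.86), KHDRBS3 (-1.44), NR2F1 (-1.52), TLR4 (-0.977), ID1 (-3.76) and LAPTM5 (-3.75), given as bone minus lung. The same held for SERPINA1 (-6.22), SERPINA3 (-5.26), JUP (-2.12), EGLN3 (-1.18), PPL (-4.64), CXCL1 (-3.69) and CCL20 (-5.1), which were lower in strong bone lines. PTPRN2 (-8.18), SPANXB1 (-7.63), CSF3 (-6.7), LINC01711 (-6.11) and KYNU (-5.3) went in opposite directions in the organs.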

How the results depend on the processing

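No called average of a named gene changed direction in the alternatives run: of the values recomputed, 3990 kept their side of the threshold, 300 lost the call and 3 gained it. With 1 line left out, shared calls ranged from 498 to 896, bone calls from 533 to 1411, lung calls from 502 to 996, organ differences from 761 to 1402, same-direction calls from 43 to 95, opposite calls from 76 to 177, and chromosome 7 calls from 52 to 84. Without both original sublines the same counts were 415, 551, 437, 595, 37, 57 and 49. Same-direction and opposite calls were 150 and 199 with a common trimmed mean and 154 and 206 with quantile normalisation. Same-direction calls were 118 with a filter at the 60th percentile on 7 arrays and 125 with an intensity trend and robust prior. Shared calls were 464 with additive strength and organ terms and 206 with strength alone, which left 34 on chromosome 7. Without SCP6 and with a trimmed mean, an alternative chosen after seeing the data, bone calls were 1731 and same-direction calls 126. The share of shared calls that were higher was 45.4%, against 55.7% without SCP6, 53.4% with array weights and 32.5% with strength alone. No paired analysis was possible because replicate numbers only name the lines. The number of arrays limits what could be called. The causes of these changes were not tested.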
